A study of Mus musculus with 2 samples.

Results

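The insulin-like growth factor (IGF) system was followed in single cells of the mouse hippocampus through 10 genes of the 32285 in the count matrices. These were the ligand genes Igf1 and Igf2, the receptor genes Igf1r and Igf2r, and the binding protein genes Igfbp2, Igfbp3, Igfbp4, Igfbp5, Igfbp7 and Igfbpl1. They were taken by gene symbol, and each symbol matched 1 row in both matrices.

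IGF1 and IGF2 are secreted growth factors that signal through the receptor tyrosine kinase IGF1R. IGF2R, also the cation-independent mannose 6-phosphate receptor, carries IGF2 to lysosomes and sorts lysosomal enzymes. Binding proteins hold the ligands in the extracellular space, and proteases that cut them release the ligands. In the brain, IGF2 is known as a product of the choroid plexus and the meninges, and IGF1 as a growth and survival factor for neurons.

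The 2 libraries came from 4-week-old mice. The Crlf3-mutant library came from mice whose Crlf3 gene, which encodes the cytokine receptor-like factor CRLF3, carries the L389P mutation, and the wild-type library from mice without the mutation. Each library pooled 4 hippocampi of 2 mice, which were dissociated together, cleared of debris and myelin, and sorted as live, 7-AAD-negative cells before a 10x Genomics run that reads transcripts from their 5′ end. Zygosity, strain and sex were not given in the sources used here. A missense change is not visible in gene counts, so the genotype labels were not checked. With 1 library per genotype there was no replicate and no test, and a difference between the libraries cannot be told apart from one between animals, dissociations or sorts.

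After filtering, the Crlf3-mutant library held 5276 cells with 41736212 UMIs (unique molecular identifiers, counts of captured transcripts) and the wild-type library 7098 cells with 48973371 UMIs. Median depth was 7385 UMIs per cell in the Crlf3-mutant library and 6193 in the wild-type library. Each cell was placed in a class by marker genes other than the 10 IGF genes, and a class is named for the cells whose markers it carries. Microglia-like cells were 3293 Crlf3-mutant and 4513 wild-type cells. Astrocyte-like cells were 497 Crlf3-mutant and 789 wild-type cells, and endothelial-like cells 812 Crlf3-mutant and 829 wild-type cells. Mural-like cells were 170 Crlf3-mutant and 129 wild-type cells, and choroid plexus-like cells 147 Crlf3-mutant and 425 wild-type cells. Neuron lineage-like cells were 213 Crlf3-mutant and 168 wild-type cells. Near the limit of that gate, on either side of it, lay 10 Crlf3-mutant and 8 wild-type cells. The neuron lineage-like cells were progenitors and neuroblasts. The gate found 1 Crlf3-mutant and 3 wild-type excitatory neuron-like cells and no inhibitory neuron-like cell or oligodendrocyte-like cell, so nothing is given on those types. Border macrophage-like, fibroblast-like and ependymal-like cells were under 50 in at least 1 library and are given as values only. The 6 classes from microglia-like to neuron lineage-like cells are called the large classes, and an order of classes covers those 6 unless a small class is named. Both libraries mixed the sexes: 2109 Crlf3-mutant and 2870 wild-type cells held Xist without Y-linked transcripts (Xist-only cells), and 1760 Crlf3-mutant and 2086 wild-type cells held Y-linked transcripts without Xist (Y-only cells). Of the choroid plexus-like cells 0 Crlf3-mutant and 3 wild-type cells were Xist-only. The libraries shared 64 barcodes before filtering and 54 after it.

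Levels are given in CPM: a gene's UMIs summed over a class of 1 library and scaled to 1000000 UMIs in all, with exact Poisson 95% intervals, and shares of cells with exact Clopper-Pearson 95% intervals. All intervals cover counting error only, not how unevenly UMIs fell among cells. Where no cell of a class held a UMI, the share allowed is 3 cells of the total. Shares of cells holding both of a pair of members were not compared with what the single shares alone would give. In the GENCODE vM21 annotation of GRCm38 (mm10), Igf1 lies at chr10:87858265-87937042 and Igf2 at chr7:142650766-142666816. Igf1r lies at chr7:67952827-68233668 and Igf2r at chr17:12682406-12769664. Igfbp2 (chr1:72824503-72852474) and Igfbp5 (chr1:72857932-72874884) are neighbours on opposite strands, 5457 bases apart. Igfbp3 lies at chr11:7206086-7213923, Igfbp4 at chr11:99041244-99054392, Igfbp7 at chr5:77349240-77408041 and Igfbpl1 at chr4:45809468-45826923. All 10 are protein-coding. Igf2 shares 98 exonic bases with the antisense gene Igf2os, and Igfbp7 shares 85 with Polr2b on the other strand. Whether reads were counted by strand was not given in the sources used here.

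The members measured in endothelial-like cells were Igf1r, Igfbp3 and Igfbp7, and the 250 bases before their RefSeq transcription starts are shown because these genes share that class but differ within it. Capitals mark the GC box GGGCGG and the ETS core CCGGAA, searched on both strands with the TATA box TATAAA.
Igf1r, chr7:67952007-67952256, plus strand: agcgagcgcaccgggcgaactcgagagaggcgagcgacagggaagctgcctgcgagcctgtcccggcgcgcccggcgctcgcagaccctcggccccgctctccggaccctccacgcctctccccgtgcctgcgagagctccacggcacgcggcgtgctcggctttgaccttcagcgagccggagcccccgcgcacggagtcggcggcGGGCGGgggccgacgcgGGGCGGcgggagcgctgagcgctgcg
Igfbp3, chr11:7213924-7214173, minus strand: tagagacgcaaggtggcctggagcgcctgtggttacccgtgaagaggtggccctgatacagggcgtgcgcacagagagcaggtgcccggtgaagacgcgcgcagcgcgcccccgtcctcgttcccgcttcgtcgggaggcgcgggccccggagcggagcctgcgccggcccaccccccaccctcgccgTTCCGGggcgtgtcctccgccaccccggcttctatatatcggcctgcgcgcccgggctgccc
Igfbp7, chr5:77408046-77408295, minus strand: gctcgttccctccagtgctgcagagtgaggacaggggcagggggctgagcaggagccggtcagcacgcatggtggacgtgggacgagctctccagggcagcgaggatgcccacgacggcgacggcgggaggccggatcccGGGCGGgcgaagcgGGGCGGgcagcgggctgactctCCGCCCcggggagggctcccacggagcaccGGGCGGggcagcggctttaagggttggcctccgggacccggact
The sequences are from RefSeq on GRCm38.p6. The GC box matched 2 times upstream of Igf1r and 4 times upstream of Igfbp7, and it occurred in 32.7% of 32851 promoter windows of this length. The ETS core matched 1 time upstream of Igfbp3 and occurred in 3952 of those windows. The TATA box occurred in 12.4% of all windows and in none of these 3 windows. Windows were at hand for 9 of the 10 members, 13 windows in all, of which 6 held the GC box, 1 the ETS core and 1 the TATA box. A match is a run of letters and was not shown to be a bound site.

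**Figure D1:**
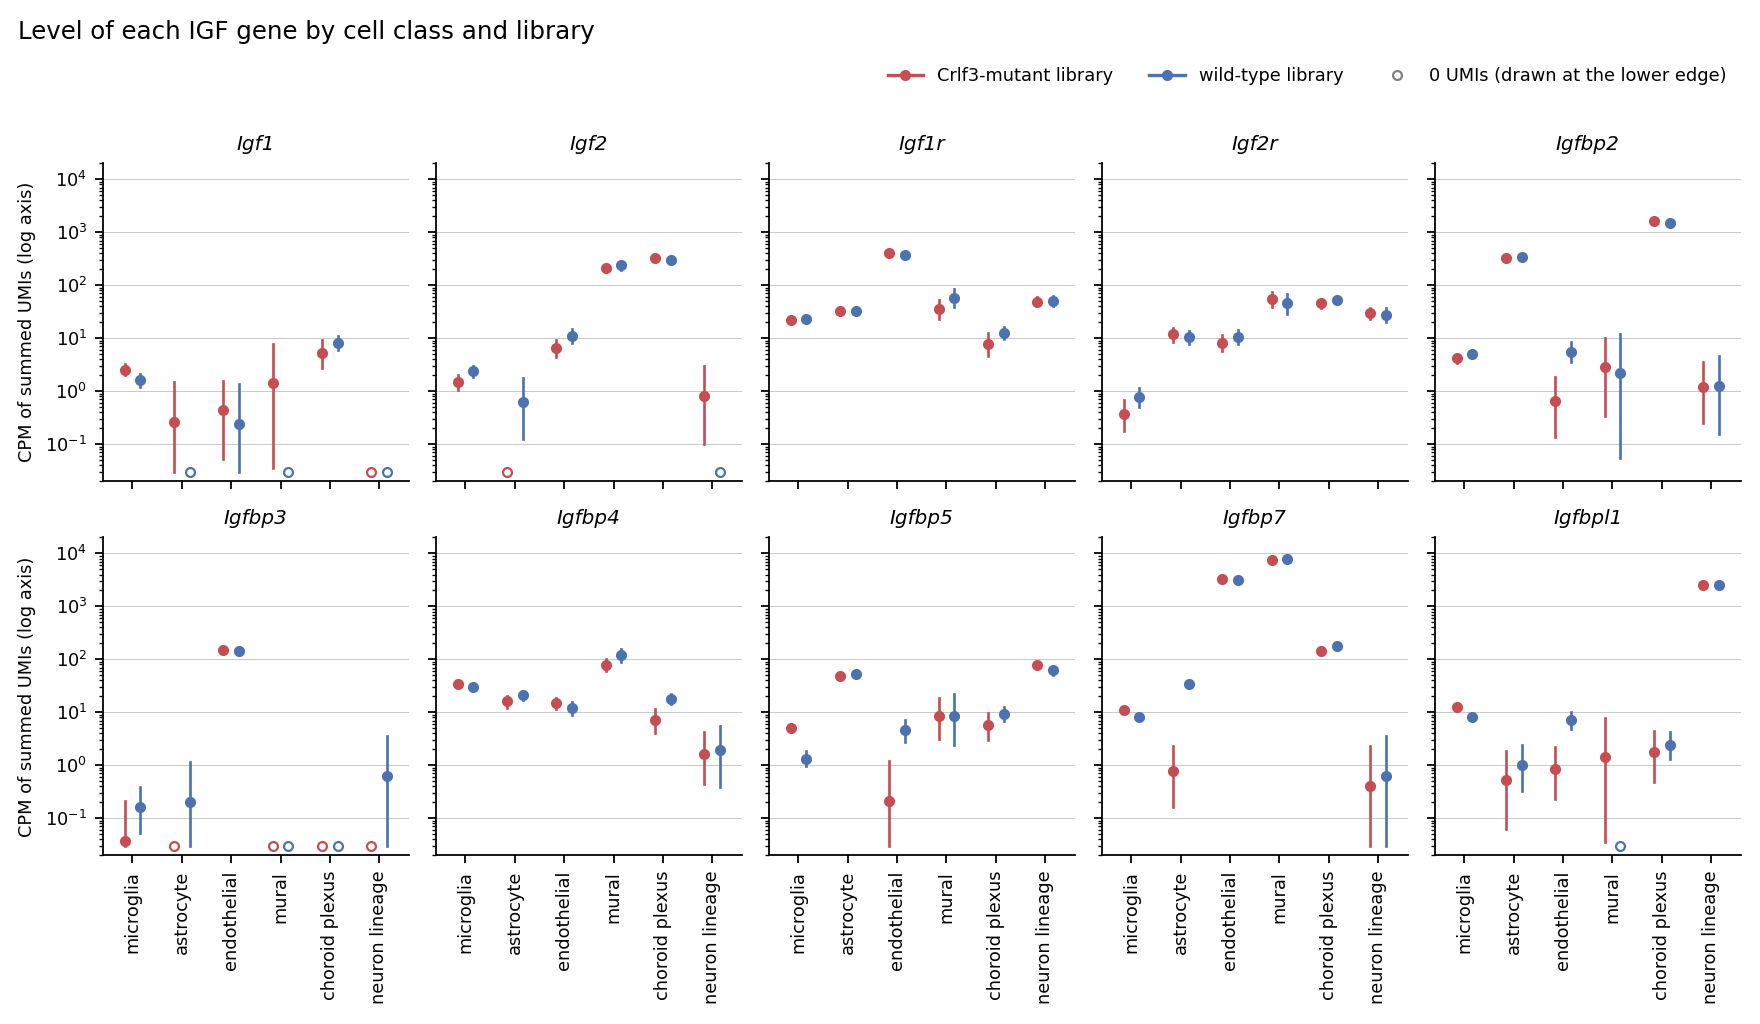
Level of each of the 10 IGF genes (vertical log axis, CPM of summed UMIs) in the 6 classes with at least 50 cells per library. Points are libraries, Crlf3-mutant left and wild type right, bars are 95% counting intervals cut off at the lower edge, and open points are classes with 0 UMIs. Igfbp3 stood out in endothelial-like cells and Igfbpl1 in neuron lineage-like cells in both libraries.

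Igf1, the ligand gene, was scarce in every large class. In microglia-like cells it reached 2.56 CPM (interval 1.99 to 3.24) in the Crlf3-mutant library and 1.64 CPM (1.22 to 2.16) in the wild-type library. That was 45 of 3293 Crlf3-mutant cells (1.37%) and 48 of 4513 wild-type cells (1.06%). The 5 cells with the most Igf1 carried 38.2% of its UMIs in the Crlf3-mutant and 14.0% in the wild-type library. In choroid plexus-like cells it stood at 5.29 CPM in the Crlf3-mutant and 8.11 CPM in the wild-type library, from 12 Crlf3-mutant and 43 wild-type UMIs. These were low levels, below the 20 CPM set for a measured gene. No Igf1 UMI was seen in the 213 Crlf3-mutant and 168 wild-type neuron lineage-like cells, which allows shares of cells with a UMI of up to 1.41% in the Crlf3-mutant and 1.79% in the wild-type library. For comparison, Igfbpl1, a gene of the neuron lineage, gave a UMI in 0.941% of Crlf3-mutant and 0.864% of wild-type microglia-like cells.

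Border macrophage-like cells, the perivascular and meningeal macrophages by their markers, were the class with the most Igf1. Their level was 162 CPM (80.9 to 290) in 12 Crlf3-mutant cells and 378 CPM (268 to 519) in 21 wild-type cells. A UMI of Igf1 was found in 7 of the 12 Crlf3-mutant cells (58.3%, interval 27.7% to 84.8%) and in 16 of the 21 wild-type cells (76.2%, 52.8% to 91.8%). In both libraries these shares lay far above those of microglia-like cells. The levels rest on 11 UMIs in the Crlf3-mutant and 38 in the wild-type library. A stricter gate kept 10 of the 12 Crlf3-mutant and 10 of the 21 wild-type cells, and Leiden clusters gave no border macrophage-like class. Of the microglia-like cells with an Igf1 UMI, 10 of 45 Crlf3-mutant cells (22.2%) and 6 of 48 wild-type cells (12.5%) also held a UMI of a border macrophage marker. Among microglia-like cells without Igf1 the shares were 7.42% in the Crlf3-mutant and 7.93% in the wild-type library. In the Crlf3-mutant library microglia-like cells with Igf1 had a median of 9151 UMIs and those without it 7742, and in the wild-type library 6693 and 6367. The part of depth in these shares was not tested.

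Igf2, the fetal growth ligand gene that stays active at brain barriers, was found in choroid plexus-like and mural-like cells. Choroid plexus-like cells held 326 CPM (303 to 351) in the Crlf3-mutant library and 298 CPM (284 to 313) in the wild-type library. A UMI was found in 90.5% of 147 Crlf3-mutant and 75.8% of 425 wild-type choroid plexus-like cells. With each cell thinned to 2000 UMIs these shares were 45.2% in the Crlf3-mutant and 38.0% in the wild-type library. Mural-like cells, which line vessel walls as pericytes or smooth muscle, held 209 CPM (176 to 245) in the Crlf3-mutant and 239 CPM (196 to 288) in the wild-type library. The intervals of the choroid plexus-like and mural-like classes overlapped in the wild-type library and not in the Crlf3-mutant library.

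Within the mural-like cells Igf2 was read mainly in pericyte-like cells. Pericyte-like cells held 313 CPM in the Crlf3-mutant and 345 CPM in the wild-type library, in 59 of 138 Crlf3-mutant and 45 of 109 wild-type cells. Smooth muscle-like cells held 8.34 CPM in the Crlf3-mutant and 6.93 CPM in the wild-type library, from 2 UMIs in 31 Crlf3-mutant cells and 1 UMI in 20 wild-type cells. The intervals of pericyte-like and smooth muscle-like cells did not overlap in either library. Endothelial-like cells were low, with 6.48 CPM in the Crlf3-mutant and 11.1 CPM in the wild-type library.

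Fibroblast-like cells, few in number, held the most Igf2 of any class. Their level was 4452 CPM in 12 Crlf3-mutant cells and 482 CPM in 25 wild-type cells. The median cell held 21.5 UMIs in the Crlf3-mutant library and 0 in the wild-type library, and the highest cells held 155 and 153 UMIs in the Crlf3-mutant and 23 and 19 in the wild-type library. The 5 highest cells carried 86.0% of the Crlf3-mutant UMIs and 75.9% of the wild-type UMIs, so these levels describe a handful of cells. Other members split the same cells the other way. Igfbp4 stood at 614 CPM in the Crlf3-mutant and 3877 CPM in the wild-type fibroblast-like cells, and Igfbp7 at 1077 CPM in the Crlf3-mutant and 6914 CPM in the wild-type cells. Whether the 2 libraries hold the same kinds of fibroblast was not tested.

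Ins2, an insulin gene next to Igf2 (11839 bases apart on the same strand), was read in choroid plexus-like cells. Its level was 61.7 CPM in the Crlf3-mutant and 48.3 CPM in the wild-type library, from 140 Crlf3-mutant and 256 wild-type UMIs, and it reached at most 7 UMIs in any other large class of either library. Exons of Igf2 overlap a read-through gene of the annotation on the same strand that is not among the genes of the matrix.

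Igf1r, the signalling receptor for both ligands, was highest in endothelial-like cells among the large classes. It stood there at 401 CPM (383 to 419) in the Crlf3-mutant and 366 CPM (348 to 385) in the wild-type library. A UMI was found in 81.9% of 812 Crlf3-mutant and 76.2% of 829 wild-type endothelial-like cells, and after thinning to 2000 UMIs in 54.8% of Crlf3-mutant and 51.1% of wild-type cells. The next large class was 8.13 times lower in the Crlf3-mutant library (neuron lineage-like cells) and 6.24 times lower in the wild-type library (mural-like cells). Neuron lineage-like cells held 49.3 CPM in the Crlf3-mutant and 50.8 CPM in the wild-type library. Astrocyte-like cells followed with 32.8 CPM in the Crlf3-mutant and 33.3 CPM in the wild-type library. Microglia-like cells held 21.9 CPM in the Crlf3-mutant and 22.9 CPM in the wild-type library, below astrocyte-like cells beyond counting error in both. Mural-like cells, with 35.2 CPM in the Crlf3-mutant and 58.7 CPM in the wild-type library, did not differ from neuron lineage-like cells beyond counting error. Choroid plexus-like cells were lowest of the large classes, with 7.94 CPM in the Crlf3-mutant and 12.6 CPM in the wild-type library. Ependymal-like cells held 21.6 CPM (5.89 to 55.4) in 19 Crlf3-mutant and 60.9 CPM (41.4 to 86.5) in 51 wild-type cells. These levels came from 4 Crlf3-mutant and 31 wild-type UMIs, and their intervals overlapped.

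Endothelial-like cells were not uniform in Igf1r. The cells were binned by a score of the arterial genes Gkn3, Sema3g, Bmx, Hey1, Vegfc and Efnb2, which is a range and not a type. Below a score of 0.25, Igf1r stood at 409 CPM in 546 Crlf3-mutant cells and 384 CPM in 578 wild-type cells. From 0.25 to 0.5 it stood at 445 CPM in 158 Crlf3-mutant cells and 372 CPM in 156 wild-type cells. From 0.5 to 1 it stood at 313 CPM in 95 Crlf3-mutant cells and 295 CPM in 76 wild-type cells, with intervals apart from those of the lowest bin in both libraries. At a score of 1 or more it stood at 255 CPM in 13 Crlf3-mutant cells and 162 CPM in 19 wild-type cells. Igf1r was thus lower in the cells with an arterial score of 0.5 or more than in the lowest bin in both libraries.

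Igf2r, the IGF2-clearing receptor, was spread over several classes at modest levels. Mural-like cells held 55.0 CPM (39.1 to 75.2) in the Crlf3-mutant and 45.6 CPM (28.2 to 69.8) in the wild-type library. Choroid plexus-like cells held 45.9 CPM in the Crlf3-mutant and 53.0 CPM in the wild-type library, so the highest large class differed between the libraries while the intervals of these 2 classes overlapped in each. Neuron lineage-like cells held 29.3 CPM in the Crlf3-mutant and 27.9 CPM in the wild-type library. Microglia-like cells were the lowest of the large classes, with 10 UMIs in 3293 Crlf3-mutant cells and 24 UMIs in 4513 wild-type cells, which is 0.376 CPM in the Crlf3-mutant and 0.786 CPM in the wild-type library. Igf2 and Igf2r were also read in the same cells. Of the choroid plexus-like cells, 59 of 147 Crlf3-mutant (40.1%) and 146 of 425 wild-type cells (34.4%) held both.

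Igfbp2, a binding protein gene with a preference for IGF2 in its product, was highest in choroid plexus-like cells among the large classes. They held 1624 CPM (1572 to 1677) in the Crlf3-mutant and 1521 CPM (1488 to 1555) in the wild-type library. A UMI was found in 147 of 147 Crlf3-mutant and 418 of 425 wild-type cells. Igf2 and Igfbp2 were read together in 90.5% of Crlf3-mutant and 75.5% of wild-type choroid plexus-like cells. Since nearly every one of these cells held Igfbp2, this follows the share with Igf2 alone. Astrocyte-like cells came next among the large classes with 327 CPM in the Crlf3-mutant and 335 CPM in the wild-type library. In them Igfbp2 was found in 53.3% of Crlf3-mutant and 48.5% of wild-type cells, and after thinning in 33.2% of Crlf3-mutant and 33.3% of wild-type cells, so at equal depth the shares were close. In the 4 other large classes it stayed at or under 5.55 CPM in both libraries. Fibroblast-like cells held 4317 CPM in the 12 Crlf3-mutant and 1114 CPM in the 25 wild-type cells, above choroid plexus-like cells in the Crlf3-mutant library and below them in the wild-type library.

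Igfbp3, the main carrier of IGFs in serum, was read in endothelial-like cells and hardly elsewhere. They held 150.0 CPM (139 to 162) in the Crlf3-mutant and 143 CPM (132 to 155) in the wild-type library. In the 5 other large classes its level stayed at or under 0.635 CPM. A minority of endothelial-like cells carried it, 124 of 812 Crlf3-mutant cells (15.3%) and 118 of 829 wild-type cells (14.2%). After thinning these shares were 11.0% in the Crlf3-mutant and 9.95% in the wild-type library.

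The level of Igfbp3 followed the arterial score. At a score under 0.25 it stood at 27.4 CPM in the Crlf3-mutant and 36.0 CPM in the wild-type library. From 0.25 to 0.5 it stood at 117 CPM in the Crlf3-mutant and 139 CPM in the wild-type library. Both pairs were far below the next bins. From 0.5 to 1 it stood at 679 CPM in the Crlf3-mutant and 550 CPM in the wild-type library. At 1 or more it stood at 1059 CPM in 13 Crlf3-mutant cells and 1213 CPM in 19 wild-type cells, and 12 of the Crlf3-mutant and 17 of the wild-type cells held a UMI. The intervals of all 4 bins were apart in both libraries. Igfbp7 differed less across the same bins. In the lowest bin it stood at 2784 CPM in the Crlf3-mutant and 2781 CPM in the wild-type library. In the third bin it stood at 4464 CPM in the Crlf3-mutant and 4038 CPM in the wild-type library.

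**Figure D2:**
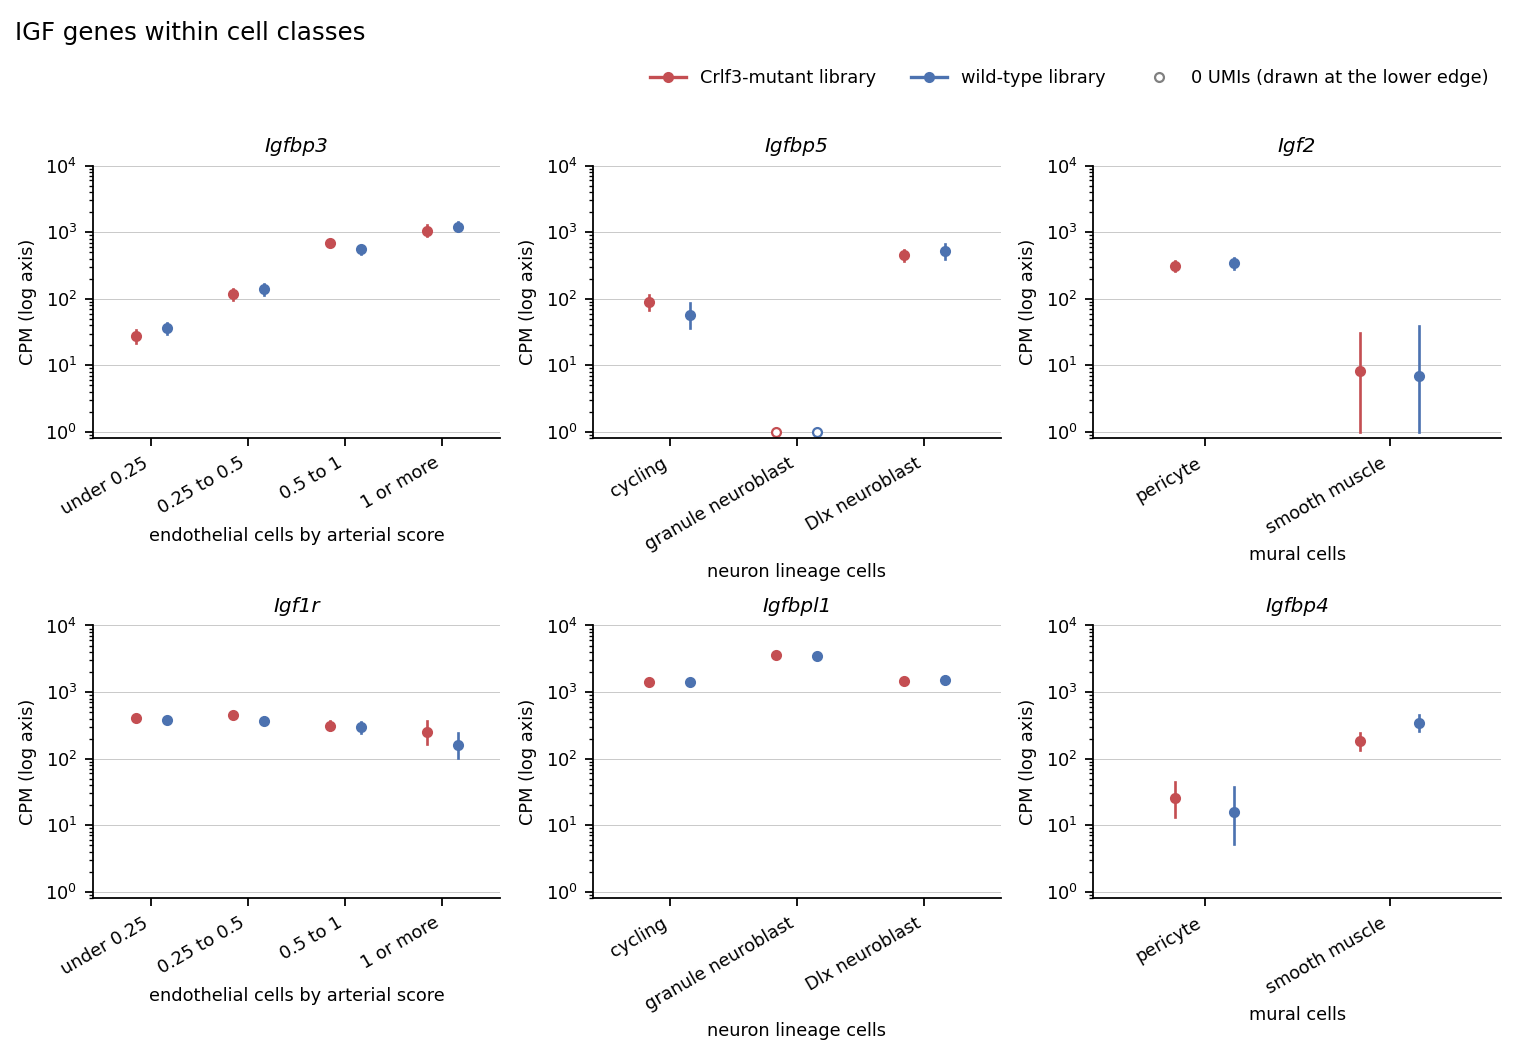
Level of 6 IGF genes (vertical log axis, CPM) within endothelial-like cells by arterial score, neuron lineage-like cells by subset and mural-like cells by subset. Points are libraries, Crlf3-mutant left and wild type right, with 95% counting intervals cut off at the lower edge, and open points are 0 UMIs. Igfbp3 was higher in each bin of higher score, Igfbp5 was at 0 UMIs in granule neuroblast-like cells of both libraries, and Igf2 was higher in pericyte-like than in smooth muscle-like cells.

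Igfbp4, whose product inhibits IGF action and is cut by the protease PAPP-A, was found in macrophage-like and mural-like cells, beside the fibroblast-like cells described above. Microglia-like cells held 34.1 CPM (32.0 to 36.4) in the Crlf3-mutant and 29.4 CPM (27.5 to 31.4) in the wild-type library. A UMI was found in 20.4% of Crlf3-mutant and 16.0% of wild-type microglia-like cells. After thinning the shares were 6.98% in the Crlf3-mutant and 5.76% in the wild-type library. Border macrophage-like cells held 692 CPM in 12 Crlf3-mutant and 597 CPM in 21 wild-type cells, with intervals above those of microglia-like cells in both libraries. Mural-like cells held 78.9 CPM in the Crlf3-mutant and 120 CPM in the wild-type library, and 5 cells carried 66.1% of those UMIs in the Crlf3-mutant and 85.5% in the wild-type library. Smooth muscle-like cells held most of it, 184 CPM in the Crlf3-mutant and 347 CPM in the wild-type library, and pericyte-like cells held 25.7 CPM in the Crlf3-mutant and 15.8 CPM in the wild-type library. A UMI of Igfbp4 was found in 8 of 31 Crlf3-mutant and 7 of 20 wild-type smooth muscle-like cells. Of its UMIs there, 5 cells carried 84.1% in the Crlf3-mutant and 94.0% in the wild-type library. Igfbp4 and Igf2 were thus highest in different mural subsets, though for Igfbp4 this rests on a few cells.

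Igfbp5, whose product also binds the extracellular matrix, was read in neuron lineage-like and astrocyte-like cells among the large classes. Neuron lineage-like cells held 77.4 CPM (66.8 to 89.2) in the Crlf3-mutant and 62.9 CPM (51.1 to 76.5) in the wild-type library. It was uneven within the lineage. Dlx-expressing neuroblast-like cells, which carry genes of the inhibitory neuron lineage, held 449 CPM in 29 Crlf3-mutant and 517 CPM in 20 wild-type cells, with a UMI in 20 of the Crlf3-mutant and 14 of the wild-type cells. Granule neuroblast-like cells, which carry genes of the dentate granule lineage, held no Igfbp5 UMI in 118 Crlf3-mutant and 95 wild-type cells, which allows shares of up to 2.54% in the Crlf3-mutant and 3.16% in the wild-type library. Cycling cells lay between, with 88.7 CPM in the Crlf3-mutant and 58.0 CPM in the wild-type library. Astrocyte-like cells held 47.8 CPM in the Crlf3-mutant and 52.4 CPM in the wild-type library, in 21.33% of Crlf3-mutant and 19.01% of wild-type cells. Igfbp2 and its neighbour Igfbp5 were read together in 10.9% of Crlf3-mutant and 7.35% of wild-type astrocyte-like cells. Whether that differs from what their single shares would give was not tested. Small classes held it too, and fibroblast-like cells had its highest level of any class, with 934 CPM in 12 Crlf3-mutant and 548 CPM in 25 wild-type cells. That level rests on a few cells: the 5 highest carried 100% of the Crlf3-mutant and 87.1% of the wild-type UMIs. The median fibroblast-like cell held 0 Igfbp5 UMIs in the Crlf3-mutant and 1 in the wild-type library, where a single cell held 84 of 132. Ependymal-like cells held 43.3 CPM in 19 Crlf3-mutant and 171 CPM in 51 wild-type cells, from 8 Crlf3-mutant and 87 wild-type UMIs.

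Igfbp7, a relative known from vessels whose product binds IGFs weakly, was present in nearly every vascular cell. Mural-like cells held 7493 CPM (7293 to 7697) in the Crlf3-mutant and 7696 CPM (7445 to 7954) in the wild-type library, with a UMI in all 170 Crlf3-mutant and all 129 wild-type cells. Endothelial-like cells held 3252 CPM in the Crlf3-mutant and 3084 CPM in the wild-type library, in 98.9% of Crlf3-mutant and 99.2% of wild-type cells. Igf1r and Igfbp7 were read together in 81.2% of Crlf3-mutant and 75.4% of wild-type endothelial-like cells, close to the shares with Igf1r alone. Choroid plexus-like cells followed among the large classes, with 146 CPM in the Crlf3-mutant and 175 CPM in the wild-type library, below the fibroblast-like cells in both. Neuron lineage-like cells gave 1 UMI in each library. Microglia-like cells gave a UMI in 0.941% of Crlf3-mutant and 1.09% of wild-type cells, and 5 cells carried 68.9% of those UMIs in the Crlf3-mutant and 53.2% in the wild-type library. Astrocyte-like cells held 0.787 CPM in the Crlf3-mutant and 34.1 CPM in the wild-type library, where 5 cells carried 94.0% of the UMIs. The summed mural markers of astrocyte-like cells were 59.6 CPM in the Crlf3-mutant and 221 CPM in the wild-type library. The part of mural RNA in that level was not tested.

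Igfbpl1, a relative of the binding proteins known from immature neurons, was read in almost all neuron lineage-like cells. They held 2536 CPM (2473 to 2600) in the Crlf3-mutant and 2574 CPM (2495 to 2654) in the wild-type library, in 208 of 213 Crlf3-mutant and 162 of 168 wild-type cells. Granule neuroblast-like cells were highest, with 3607 CPM in the Crlf3-mutant and 3510 CPM in the wild-type library and a UMI in all 118 Crlf3-mutant and all 95 wild-type cells. Dlx-expressing neuroblast-like cells held 1456 CPM in the Crlf3-mutant and 1535 CPM in the wild-type library, and cycling cells 1439 CPM in the Crlf3-mutant and 1428 CPM in the wild-type library. Igfbpl1 and Igfbp5 thus had opposite orders across the 2 neuroblast-like subsets. The next large class, microglia-like cells, was 201 times lower in the Crlf3-mutant and 320 times lower in the wild-type library. Of the Igfbpl1 UMIs of microglia-like cells, 5 cells carried 57.7% in the Crlf3-mutant and 51.6% in the wild-type library. Ependymal-like cells held no Igfbpl1 UMI in 19 Crlf3-mutant cells and 49.1 CPM in 51 wild-type cells. Microglia-like cells gave a UMI in 0.941% of Crlf3-mutant and 0.864% of wild-type cells, at median depths of 7765 UMIs in the Crlf3-mutant and 6368 UMIs in the wild-type library, close to the shares of Igfbp7 in the same cells.

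Between the genotypes the IGF genes were close in most of the pairs that could be measured. Of the 60 pairs of a member and a large class, 21 were measured, meaning at least 20 CPM and 30 UMIs over both libraries together, and Igf1 was measured in none. The log2 ratio of Crlf3-mutant over wild type, with 10 CPM added to each level, lay between -0.60 and 0.26. It was above 0 in 9 pairs and below 0 in 12, with a median of -0.02 and a median size of 0.11. Over all 38101 measured gene and class pairs the median was 0.01 and the median size 0.09. Of the 21 pairs, 1 reached 1.5 times, beside 1.41% of all measured pairs. Of the 10 members, 9 had the same highest large class in both libraries. Among the pairs not measured, Igfbp7 in astrocyte-like cells had a log2 ratio of -2.03. That ratio rested on 3 Crlf3-mutant and 166 wild-type UMIs. The fibroblast-like cells, whose levels differed more, are not among the 60 pairs.

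The pair past 1.5 times was Igf1r in mural-like cells, with 35.2 CPM in the Crlf3-mutant and 58.7 CPM in the wild-type library from 25 Crlf3-mutant and 27 wild-type UMIs. Its log2 ratio was -0.60 with a counting interval of -1.24 to 0.04, which holds 0. In mural-like cells 6.84% of all measured genes were that far apart, 2.89% lower and 3.95% higher in the Crlf3-mutant library. Over the alternatives the ratio ran from -0.98 in Xist-only cells to 0.26 in Y-only cells. It was -0.75 with classes from Leiden clusters, -0.72 with 1 CPM added, -0.44 without the barcodes that both libraries share and -0.07 after thinning to 2000 UMIs. Igfbp4 in mural-like cells had a log2 ratio of -0.54 (-1.03 to -0.06), which became 0.42 without the 5 highest cells of each library.

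The other ratios were smaller. Igfbp5 in neuron lineage-like cells had a log2 ratio of 0.26 (-0.04 to 0.57), and it was 0.73 with classes from Leiden clusters and 0.54 with a stricter gate. Of the neuron lineage-like cells, 29 of 213 Crlf3-mutant and 20 of 168 wild-type cells were Dlx-expressing. Igfbp7 in choroid plexus-like cells stood at -0.24 (-0.41 to -0.07), and Igf2 and Igfbp2 in those cells at 0.13 and 0.09. The Igf2 ratio was 0.29 after thinning and -0.07 in Y-only cells. Igf1r in endothelial-like cells stood at 0.13 (0.03 to 0.22) and Igfbp4 in microglia-like cells at 0.16 (0.06 to 0.26). Of the measured genes of the same class, 68.5% had a smaller ratio in size than this Igf1r ratio and 95.6% than this Igfbp4 ratio. In Xist-only cells these ratios were 0.25 for Igf1r and 0.27 for Igfbp4, and in Y-only cells 0.01 for Igf1r and -0.04 for Igfbp4, and the difference between the subsets was not tested. Igfbpl1 in neuron lineage-like cells stood at -0.02 (-0.08 to 0.04) and Igfbp7 in mural-like cells at -0.04 (-0.10 to 0.02). The counting interval excluded 0 in 7 of the 21 pairs, and the spread between animals is not part of it. The share of all measured gene and class pairs whose interval excluded 0 is not given here. The count of 7 is therefore not read as a result about the members. In choroid plexus-like cells the median ratio of all measured genes was 0.053. It lay inside the intervals of Igf2 (0.003 to 0.247) and Igfbp2 (0.038 to 0.149) in those cells.

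**Figure D3:**
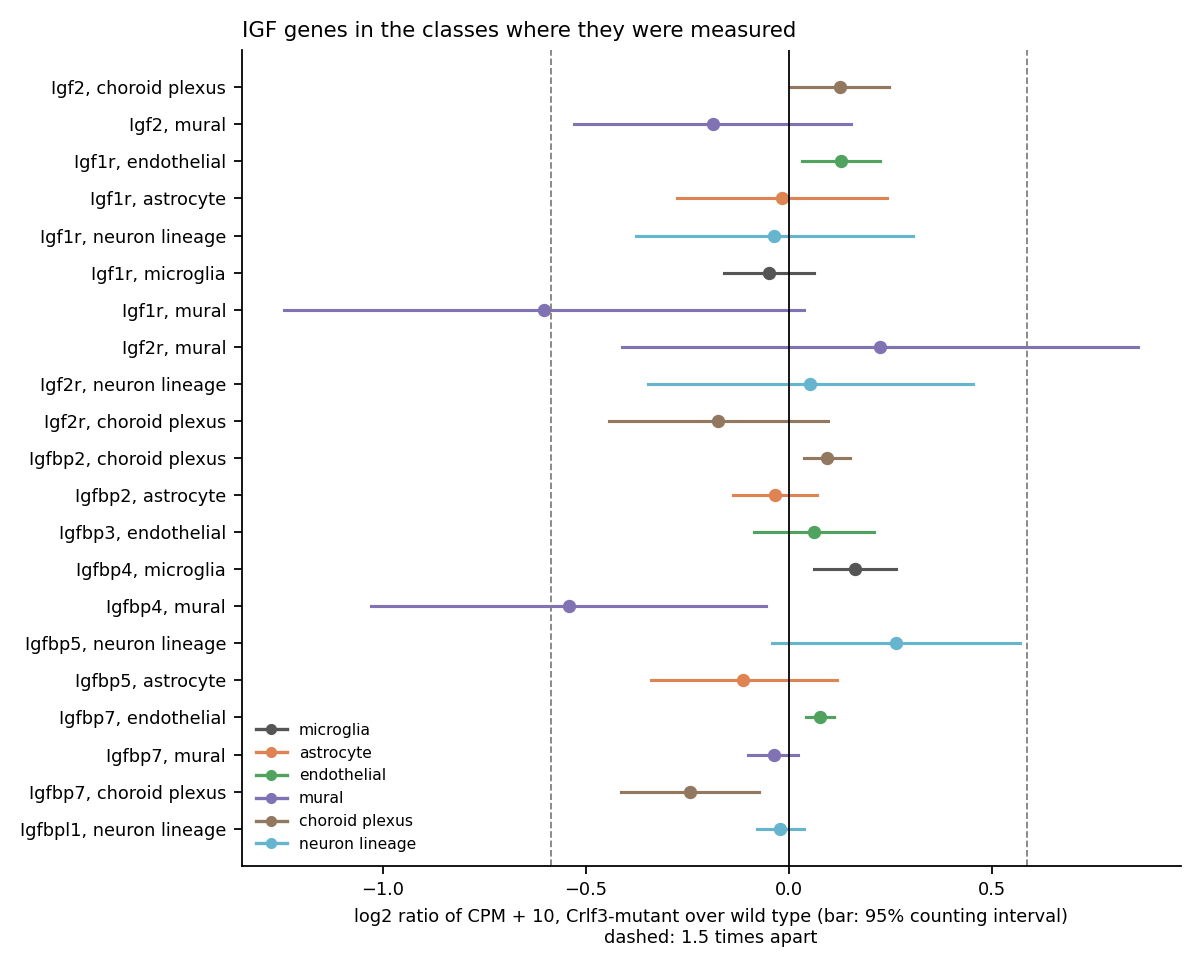
Log2 ratio of Crlf3-mutant over wild type (horizontal axis, CPM + 10) for the 21 measured pairs of an IGF gene and a class. Points are ratios of the 2 libraries, bars are 95% counting intervals, colours are classes and dashed lines mark 1.5 times. Igf1r in mural-like cells, at -0.60, was the pair past the line.

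The wider pathway was read through 51 further genes of insulin, growth hormone, IGF protease and PI3K signalling. In microglia-like cells 20 were measured, in astrocyte-like cells 22, in endothelial-like cells 24 and in choroid plexus-like cells 16, and none of these was 1.5 times apart. The share of all measured genes that far apart was 0.147%, 0.259%, 0.156% and 0.651% in those classes. In mural-like cells 23 were measured, of which 2 were higher and 1 was lower in the Crlf3-mutant library, beside the 3.95% of all measured genes higher and 2.89% lower there. Among the higher ones was the kinase gene Akt2 (43.7 CPM in the Crlf3-mutant, 23.9 CPM in the wild-type library, log2 ratio 0.66). The lower one was the adaptor gene Grb2 (67.7 CPM in the Crlf3-mutant, 115 CPM in the wild-type library, -0.69). Akt2 rested on 31 Crlf3-mutant and 11 wild-type UMIs and Grb2 on 48 Crlf3-mutant and 53 wild-type UMIs. In neuron lineage-like cells 20 were measured and 1 was 1.5 times higher, beside 0.495% of all measured genes that far higher and 0.756% in either direction. That was Tsc2, an inhibitor of mTOR signalling, with 44.8 CPM in the Crlf3-mutant and 25.4 CPM in the wild-type library (0.63).

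Other pathway genes differed in their highest class. Insr, the insulin receptor gene, was highest in endothelial-like cells among the 6 large classes, as Igf1r was, with 149.7 CPM in the Crlf3-mutant and 140 CPM in the wild-type library. The adaptor gene Grb14 was also highest there, with 136 CPM in the Crlf3-mutant and 132 CPM in the wild-type library. So were Sos1, an exchange factor gene for Ras (131 CPM in the Crlf3-mutant, 117 CPM in the wild-type library), and Socs2, a feedback inhibitor gene (88.8 CPM in the Crlf3-mutant, 70.7 CPM in the wild-type library). The secreted protease genes Adamts1 (402 CPM in the Crlf3-mutant, 362 CPM in the wild-type library) and Htra3 (84.7 CPM in the Crlf3-mutant, 75.0 CPM in the wild-type library) had the same highest class. Htra1, a protease gene with an IGF-binding domain in its product, was highest in astrocyte-like cells at 2608 CPM in the Crlf3-mutant and 2326 CPM in the wild-type library. Ghr, the growth hormone receptor gene, was highest in the same class at 41.5 CPM in the Crlf3-mutant and 48.7 CPM in the wild-type library. Mural-like cells held the most of the adaptor gene Gab1 (144 CPM in the Crlf3-mutant, 113 CPM in the wild-type library). They also had the highest value of the receptor substrate gene Irs2 (47.9 CPM in the Crlf3-mutant, 30.4 CPM in the wild-type library). These values rested on 34 Crlf3-mutant and 14 wild-type UMIs. Choroid plexus-like cells came near in the wild-type library, with 25.8 CPM from 137 UMIs, and held 19.8 CPM in the Crlf3-mutant library. Whether these 2 classes differ in Irs2 was not tested. In endothelial-like cells Irs2 gave 1 Crlf3-mutant and 2 wild-type UMIs, and the substrate gene Irs1 gave 0 Crlf3-mutant and 1 wild-type UMI. The binding protein genes Igfbp1 and Igfbp6, named after their values were seen, stayed at or under 1.51 CPM in all 6 large classes.

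The genes most like each member over the 12 points of class and library, by Pearson's r of log2(CPM + 10), are given as a description, since the points share libraries and classes. Igfbp3 was nearest to Gm32688, Dipk2b and Kcnq1 (r of 1.0 each after rounding) and Igfbpl1 to Birc5, Rad51ap1 and Pimreg (0.999, 0.999 and 0.998). Igfbp3 and Igfbpl1 each stood high in a single large class, so their r rests mainly on that class and does not describe cells within it. Birc5 is a marker of the cycling subset, whereas Igfbpl1 was lower in cycling than in granule neuroblast-like cells. Igfbp2 was nearest to Trpm3, A330048O09Rik and Cntn1 (0.998, 0.998 and 0.997) and Igf2 to Pcolce, Fap and Fam161a (0.995, 0.988 and 0.984). Igf1r was nearest to Shld1, Slc52a2 and Cpd (0.989, 0.981 and 0.973), and Igfbp7 to Gm15270, Cavin1 and Tinagl1 (0.988 each). Igfbp5 was nearest to Ppp2r2b, Srpk2 and Efna2 (0.978, 0.978 and 0.976). Igf2r, nearest to Rex1bd, Hax1 and Pdcd5 (0.976, 0.968 and 0.966), and Igfbp4, nearest to Kctd11, Orai3 and H6pd (0.95, 0.95 and 0.946), had the lowest first values of the members measured. Igf1, under 20 CPM in all 6 classes, had its highest values with Prkcq, Cfap45 and Fhad1 (0.965, 0.958 and 0.955).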

How the data were processed

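The deposited values are raw UMI counts, not normalized, for each gene in each barcode. Per the labels' protocols, the authors made them with Cell Ranger 6.1.1 on the mm10-2020-A reference. Per the submitters' processing notes Partek was also used, with no role given. Cells needed at least 500 genes, 1000 UMIs and at most 10% mitochondrial UMIs. Scrublet (scanpy 1.11.5, expected rate 0.06, per library) marked 77 doublets (1.44%) in the Crlf3-mutant and 148 (2.04%) in the wild-type library, which were removed. The files name no cell types. A cell joined the class with the highest mean of ln(1 + UMIs per 10000) over its markers, given a score of at least 0.5, at least 3 detected markers and a lead of 0.3. These limits were set after the counts were read, and 68 Crlf3-mutant and 121 wild-type cells had no class. Within a class 95% intervals were computed on summed counts, and thinned values draw 2000 UMIs per cell, leaving out 120 Crlf3-mutant and 162 wild-type cells below that. Log2 ratios use a pseudocount of 10 CPM and carry a normal counting interval. No test was run, since there is 1 library per genotype. The calculation was tested on simulated data.

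The members and lists were chosen with earlier results of these data known. All 10 members were named, with the 3 genes nearest to each in pattern, the pathway genes 1.5 times apart and up to 4 of the highest in each pathway group. Values of some pathway genes that this rule names are not reported here. Alternatives were another pseudocount, cell filters, no doublet removal, Leiden clusters (leidenalg 0.10.2), a stricter gate, thinning, per-cell means, another total, sex-transcript subsets, leaving out the highest cells, and no filter on low values. Leaving out shared barcodes, or cells with 20 or more microglia marker UMIs, was added after the data were seen.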

Additional observations from a re-analysis of the deposited data

Results flagged for a closer look

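Igfbp3 in endothelial-like cells took opposite directions in 2 subsets of the cells. In Xist-only cells, which held Xist and no Y-linked transcript, its log2 ratio of Crlf3-mutant over wild type was -0.28 (counting interval -0.54 to -0.02), from 203 Crlf3-mutant and 206 wild-type UMIs. In Y-only cells, which held Y-linked transcripts without Xist, it was 0.66 (0.39 to 0.93), from 289 Crlf3-mutant and 141 wild-type UMIs. The difference between the subsets was not tested, since there is 1 library per genotype. In the Y-transcript subset, cells with an arterial score of at least 0.5 held 1285 CPM in the Crlf3-mutant library (28 of 199 cells) and 711 CPM in the wild-type library (22 of 186 cells). Below that score the levels were 44.0 CPM in the Crlf3-mutant and 46.3 CPM in the wild-type library. In the Xist subset, cells with that score held 599 CPM in the Crlf3-mutant library (37 of 284 cells) and 766 CPM in the wild-type library (30 of 253 cells). Below that score the Xist subset held 43.2 CPM in the Crlf3-mutant and 68.9 CPM in the wild-type library.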

How the results depend on the processing

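The count of member and class pairs at least 1.5 times apart, 1 in the values above, was 2 with a pseudocount of 1 CPM, a looser cell filter, no doublet removal, a stricter gate, a total without mitochondrial, ribosomal and haemoglobin UMIs, Xist-only cells, or without cells holding 20 microglia marker UMIs (added after the data were seen). It was 3 with Leiden clusters and with the stricter cell filter, and 4 of 57 pairs with no filter on low values. It was 0 with thinned cells, the mean of per-cell CPM, without the 5 highest cells, or without shared barcodes (added after the data were seen). The number of measured pairs changed too, from 21 to 18 after thinning and 23 without doublet removal. After thinning, Igf2r in mural-like cells was past 1.5 times, at 0.84, but was not among the 18 measured pairs. The share of all measured genes that far apart under each alternative is not given here. These counts are therefore not read as results about the members. The count of pathway genes, 4, was 2 with the stricter cell filter, 3 with the looser one, 5 with the mean of per-cell CPM, 6 with a pseudocount of 1 CPM or no filter on low values, and 4 under the other alternatives. Igf1r in mural-like cells, at -0.60, was 0.26 in Y-only cells, which rested on 13 Crlf3-mutant and 4 wild-type UMIs. The cause was not tested for any of these. Igf2r in mural-like cells, at 0.22, ran from -0.01 to 0.84 and Igfbp4 there from -0.90 to 0.42, while Igfbpl1 in neuron lineage-like cells stayed between -0.06 and 0.08 and Igfbp7 in endothelial-like cells between 0.05 and 0.15. No Xist-subset value was possible for choroid plexus-like cells, which held 0 Crlf3-mutant and 3 wild-type cells of that kind. Counts under about 30 UMIs in mural-like cells limit what can be told there. No paired analysis was possible because each genotype had 1 library, so no replicate numbers are shared.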
